A study of Mus musculus with 15 samples.

Results

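The comparison of TSA testes with HMS-I1 testes rests on 6 of the 15 RNA sequencing libraries of a mouse testis series: 3 labelled TSA and 3 labelled HMS-I1, chosen by their labels alone. All were made from whole testes of C57/BL6 mice, in a study whose title concerns histone H3 and H4 modifications and chromosome organisation in meiotic prophase I. The other 9 libraries, 3 each from the treatments MTX and AA and from the Control, entered the shared estimate of spread and are shown for context. The labels spell out none of the treatment names and give no dose, age or duration, and nothing in them says whether replicates were separate animals, so the spread behind each p-value may be technical. A further limit is that the HMS-I1 libraries, numbered in their titles, carry the treatments HMS-I1, HMS-I2 and HMS-I3, a different one for each.

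In the seminiferous tubule, spermatogonia divide and enter meiosis, spermatocytes recombine their chromosomes, and haploid round spermatids form an acrosome and a tail while their histones are replaced by transition proteins and then protamines. Sertoli cells nurse these germ cells inside the tubule, and Leydig cells, macrophages and vessels lie between the tubules. Round spermatids switch on a large set of genes that other cells of the testis use little, many under the transcription factor CREM, which binds cAMP response elements. In RNA from whole testes, fewer cells of a type and less RNA per cell cannot be told apart.

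Many spermatid genes were lower in TSA replicates 2 and 3 than in HMS-I1 replicates 2 and 3 and close to equal in the replicate 1 libraries. Cst13, a cystatin of the testis, stood at 6035, 37.6 and 767 normalised counts in TSA replicates 1 to 3, against 6226, 2754 and 3521 in HMS-I1 replicates 1 to 3. Ccdc185, a coiled-coil protein gene, had 4773, 56.8 and 763 normalised counts in TSA testes and 4672, 3945 and 2916 in HMS-I1 testes. Iqcf6, which encodes a protein with an IQ motif, had 1044, 13.4 and 183 normalised counts in TSA testes and 1379, 791 and 794 in HMS-I1 testes. In all 3 genes TSA replicates 2 and 3 lay below every HMS-I1 library, and TSA replicate 1 lay above HMS-I1 replicates 2 and 3. The 250 bases before the annotated start of these genes (RefSeq, GRCm38.p6, 5′ to 3′ along the gene) are shown because they belong to the 10 named genes with the lowest TSA level relative to HMS-I1 in replicate 2, among genes averaging at least 50 and bearing a proper symbol. They lie at chr2:148819849-148820098 on the plus strand for Cst13, chr1:182749181-182749430 on the minus strand for Ccdc185 and chr9:106626351-106626600 on the plus strand for Iqcf6. Capitals mark the short core of the cAMP response element, TGACG, searched on both strands, so that on the opposite strand it reads CGTCA.

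Cst13: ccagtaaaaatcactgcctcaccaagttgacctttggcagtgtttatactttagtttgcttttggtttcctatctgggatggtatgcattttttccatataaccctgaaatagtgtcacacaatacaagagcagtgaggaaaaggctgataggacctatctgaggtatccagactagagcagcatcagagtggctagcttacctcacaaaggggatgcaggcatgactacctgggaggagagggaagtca

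Ccdc185: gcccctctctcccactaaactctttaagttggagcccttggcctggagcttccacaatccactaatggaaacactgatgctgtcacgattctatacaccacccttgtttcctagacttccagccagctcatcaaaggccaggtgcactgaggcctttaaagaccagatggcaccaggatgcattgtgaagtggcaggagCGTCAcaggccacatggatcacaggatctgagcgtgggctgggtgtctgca

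Iqcf6: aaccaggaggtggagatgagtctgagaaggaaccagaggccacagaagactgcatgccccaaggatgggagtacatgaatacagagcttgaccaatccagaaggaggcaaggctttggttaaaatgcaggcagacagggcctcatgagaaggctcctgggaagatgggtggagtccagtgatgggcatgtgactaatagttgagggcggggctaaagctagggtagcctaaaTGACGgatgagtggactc

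Of these 10 genes, 8 had an entry in the promoter table, and 3 of the 8 held that core in this window (Actrt3, Ccdc185 and Iqcf6), while 17.8% of all 32851 promoters did. The full element, TGACGTCA, was found in 0 of the 8 windows and in 1.55% of all promoters.

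No gene passed the test over all genes with the 6 libraries included. The values are the submitters' normalised counts, and the test was limma on log2(normalised count + 1) over the 17896 genes whose average in the 15 libraries was 10 or more, at an adjusted p (Benjamini-Hochberg) under 0.05. Over the 5 group means, 0 of 17896 genes passed (0%, smallest adjusted p = 1), and 485 (2.71%) had an unadjusted p under 0.05, 32 higher and 453 lower in TSA. With the replicate number as a block in the 6 libraries, 0 passed again (0%, smallest adjusted p = 0.392). In that fit 1911 (10.7%) had an unadjusted p under 0.05, 966 higher and 945 lower in TSA. By chance 894.8 would be expected in either fit, so the count over the 5 group means fell below it and that with the block above. Genes are not independent, so neither count is a test. Every gene named here therefore had an adjusted p of at least 0.392 with the block. Single genes are described below by their differences and errors. Most list members named were picked by small p with the block, which favours 1 sign over the 3 replicate numbers. Differences are TSA minus HMS-I1 on the log2(normalised count + 1) scale, followed by the standard error of the fit with the block, and understate the difference of genes with few counts.

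The outcome turned on TSA replicate 1. Leaving out that library alone, limma over the 5 groups called 537 genes, all lower in TSA (3% of the genes tested), whereas leaving out any other single library of the 6 gave 0. That fit set 2 TSA libraries poor in histone transcripts against HMS-I1 libraries of which 1 was rich in them. With this library difference as a term, and chosen after the data were seen, leaving out TSA replicate 1 gave 1009 genes lower in TSA (5.64%) and 2 higher. With the same term and both replicate 1 libraries left out, 583 genes were lower in TSA (3.26%) and 0 higher, and the smallest adjusted p was 0.000201. Without the term, leaving out both replicate 1 libraries gave 1 gene, the Y-linked Gm20831, lower in TSA. In the fit with the block it gave 0, with 4084 genes (22.8%) at an unadjusted p under 0.05. A test of whether the difference in replicate 1 departed from that in replicates 2 and 3 passed for 0 genes (0%). Its smallest adjusted p was 0.113, and 1991 genes (11.1%) stood under 0.05 before adjustment. The calls made without TSA replicate 1 are conditional on leaving out the library that stands apart in the outcome itself.

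Every marker of spermatogonia, spermatocytes, spermatids, Sertoli cells and Leydig cells was above 0 in all 6 libraries, as whole testis would give. Libraries of equal number resembled each other across the TSA and HMS-I1 groups. The replicate 1 libraries were rich in replication-dependent histone transcripts, with a mean log2 level over 60 histone genes of 8.62 in TSA replicate 1 and 8.51 in HMS-I1 replicate 1. The same mean was 2.95 and 3.51 in TSA replicates 2 and 3, and 3.27 and 3.86 in HMS-I1 replicates 2 and 3. Mitochondrially encoded genes took 1.39%, 10.4% and 4.52% of the total in TSA testes, against 1.08%, 9.62% and 3.54% in HMS-I1 testes. The group means were 5.44 ± 4.58% in TSA and 4.75 ± 4.40% in HMS-I1 (SD, n = 3 each), a difference of 0.692 percentage points (exact permutation test, two-sided, p = 0.7, with 0.1 the smallest p that 3 against 3 allows). That test took no account of the replicate number, so the spread between numbers entered its p. Within each replicate number the share was the higher in TSA. The columns summed to between 27491400 and 31649200 in TSA and between 27773800 and 35169100 in HMS-I1. The commonest value above 0, a rough guide to the worth of 1 read, was 2.27, 0.526 and 0.645 in TSA replicates 1 to 3 and 2.53, 0.629 and 0.453 in HMS-I1 replicates 1 to 3, so that the replicate 1 libraries were the shallowest of the 6.

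**Figure D1:**
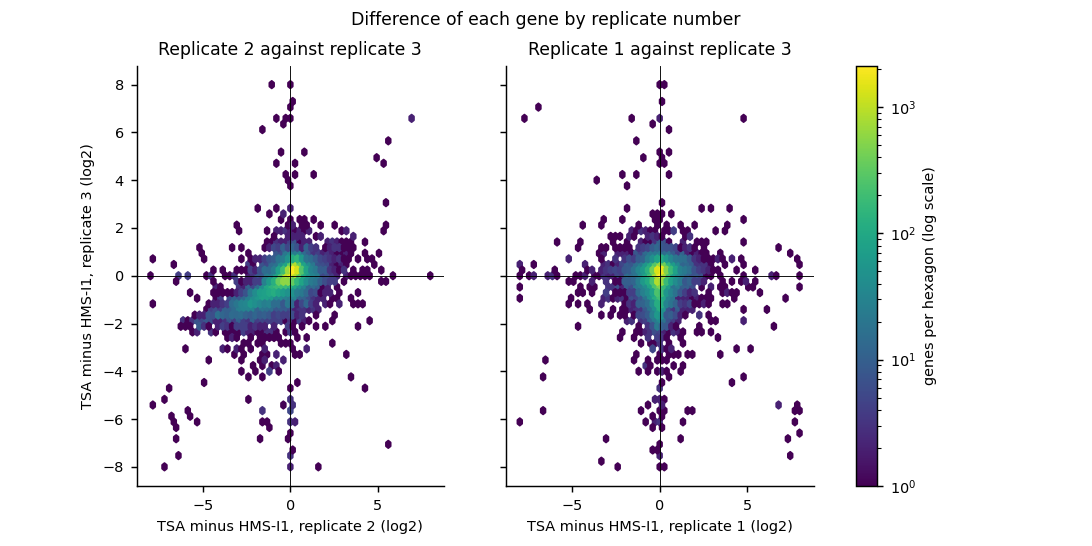
Each hexagon counts genes by their difference TSA minus HMS-I1 (log2 scale) in replicate 2 (left panel) or replicate 1 (right panel) on the x axis and in replicate 3 on the y axis, with colour for the number of genes on a log scale, for the 17896 genes tested, with differences beyond 8 drawn at 8. Differences in replicates 2 and 3 rise together (Pearson r across genes 0.54), and those in replicates 1 and 3 do not (r = -0.02).

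Across genes, the differences in replicates 2 and 3 correlated with a Pearson r of 0.54 and a Spearman rho of 0.56, those in replicates 1 and 2 with an r of 0.03, and those in replicates 1 and 3 with an r of -0.02. These are descriptions over 17896 genes, which are not independent replicates. Genes lower in TSA by over 1 on the log2 scale numbered 677 (3.78%) in replicate 1, 2227 (12.4%) in replicate 2 and 1317 (7.36%) in replicate 3. Genes higher in TSA by over 1 numbered 617 (3.45%), 602 (3.36%) and 223 (1.25%) in replicates 1, 2 and 3. The lower genes of replicates 2 and 3 shared 1009 genes, which were 45.3% of the 2227 and 76.6% of the 1317, whereas replicates 2 and 1 shared 94 genes, 4.22% of the 2227 and 13.9% of the 677.

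The 907 genes lower by over 2 in replicate 2 had a median difference of -0.05 in replicate 1, -2.76 in replicate 2 and -1.30 in replicate 3, and 866 of them were also lower in TSA replicate 3 than in HMS-I1 replicate 3. These genes were picked by their difference in replicate 2, so its size there follows from the choice. Of the 155 genes higher by over 2 in replicate 2, 101 were higher in replicate 3, with a median of 0.36. Of the 2227 genes lower by over 1 in replicate 2, 9.16% lay on the X chromosome, 9.52% on the Y chromosome, and 19.8% were annotated with a single exon. Among all genes tested the shares were 4.91%, 1.94% and 7.34%.

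The first of the 10 was Prss52, a serine protease gene of the testis. It had 2980, 31.9 and 536 normalised counts in TSA replicates 1 to 3 and 3023, 2455 and 2031 in HMS-I1 replicates 1 to 3, and between 1758 and 3251 in the other 9 libraries. TSA replicates 2 and 3 thus lay below all 13 other libraries. Hemgn, known from blood progenitors and from spermatids, had 3388, 118 and 1048 normalised counts in TSA and 3623, 6282 and 3980 in HMS-I1. Actrt3, an actin-related protein of the sperm head, had 2573, 35.5 and 542 in TSA and 2886, 1544 and 2009 in HMS-I1. Pex5l, Slc10a2 (a bile acid transporter gene), Fam71b and Trim42 completed the 10 and likewise had TSA replicate 2 lowest and TSA replicate 3 next, below all HMS-I1 libraries. Slc10a2 differed in replicate 1 too, with 208 in TSA and 370 in HMS-I1. Differences over the 3 replicate numbers lay between -2.80 for Cst13 and -2.39 for Fam71b. Without TSA replicate 2 they were -0.87 for Cst13, -0.97 for Prss52 and -1.22 for Fam71b. Without TSA replicate 1, limma over the 5 groups gave Prss52 a difference of -4.22 (standard error 0.80, adjusted p = 0.0163), and Trim42 -3.76 (standard error 0.63, adjusted p = 0.0117). These 10 genes were picked by replicate 2, which that fit still holds, so their low adjusted p partly follows from the choice. With both replicate 1 libraries left out, limma over the 5 groups called 1 gene, Gm20831, which is none of the 10.

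**Figure D2:**
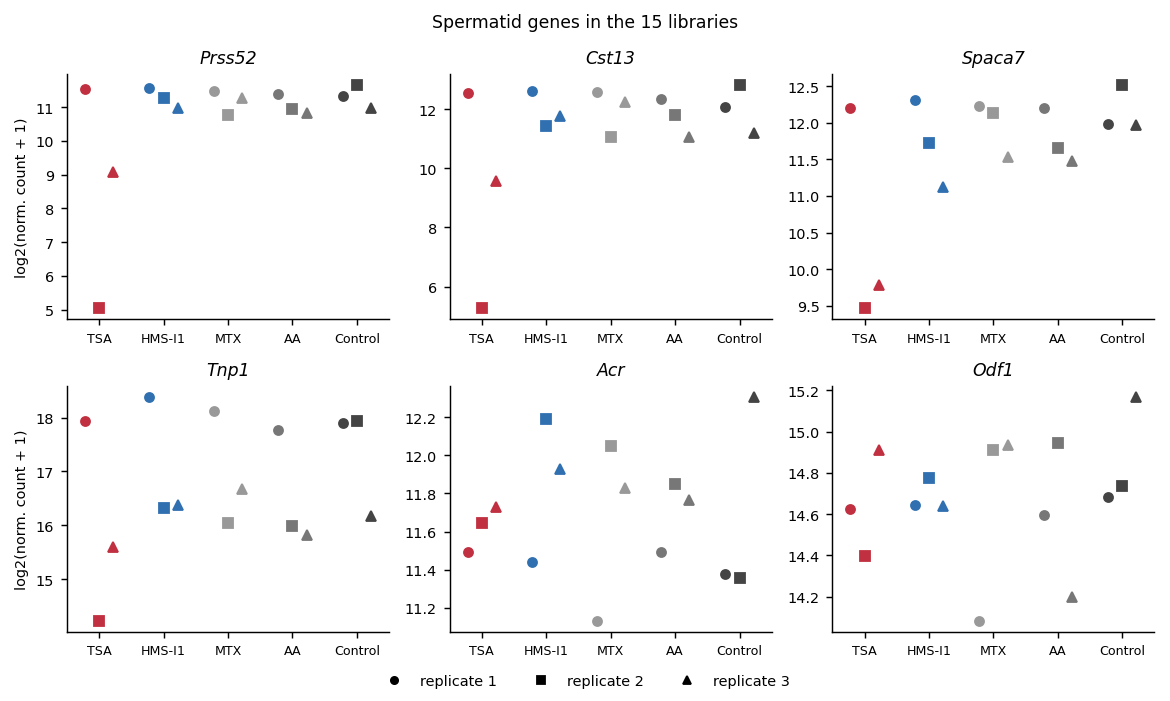
log2(normalised count + 1) of 6 spermatid genes in the 15 libraries, grouped on the x axis by treatment, with 1 symbol per library (circle, square and triangle for replicates 1, 2 and 3). TSA replicates 2 and 3 lie below every other library for Prss52, Cst13, Spaca7 and Tnp1, and among the other libraries for Acr and Odf1.

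Among 24 round spermatid genes, 23 were on average lower in TSA and 1 higher, with a median difference of -0.83 beside 0.01 over all genes tested. Their median was 0.05 in replicate 1, -1.81 in replicate 2 and -0.84 in replicate 3. In replicate 2, 14 of the 24 were lower by over 1 (12.4% of all genes), in replicate 3 9 of 24 (7.36% of all genes) and in replicate 1 0 of 24 (3.78%). Lower in all 3 replicate numbers were 8 of 24, beside 18.6% of all genes tested. Of the 24, 0 passed either test with all libraries, and 2 had an unadjusted p under 0.05 with the block, beside 10.7% of all genes. Without TSA replicate 1, 7 of 24 passed, all lower, beside 3% of all genes (Acrv1, Catsper3, Izumo1, Spaca1, Spaca7, Tex33 and Tssk1). With the library term and both replicate 1 libraries left out, 8 of 24 passed, beside 3.26% of all genes. Without that term, leaving out both gave 0 of 24, beside 1 of all 17896 genes. The list was chosen with earlier results of these data known.

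Crem, the activator of the haploid programme, had 7633, 5235 and 4472 normalised counts in TSA and 8139, 7853 and 6629 in HMS-I1 (difference -0.42, standard error 0.14). TSA replicates 2 and 3 lay below all HMS-I1 libraries and also below the 9 others, whose lowest value was 7039. Spaca7, an acrosomal protein gene, had 4709, 706 and 879 normalised counts in TSA and 5091, 3381 and 2218 in HMS-I1 (difference -1.24, standard error 0.43). Without TSA replicate 1 it passed, at a difference of -2.09 and an adjusted p of 0.0125. Catsper1, a subunit of the calcium channel of the sperm tail, had 1265, 655 and 708 in TSA and 1255, 3281 and 1730 in HMS-I1 (difference -1.20, standard error 0.47). Zpbp, a protein that binds the egg's zona pellucida, had 7212, 5147 and 4957 in TSA and 7475, 7761 and 6534 in HMS-I1, a difference of -0.35.

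The round spermatid markers did not move by one amount. Acrv1, a protein of the acrosomal vesicle, had 5956, 1019 and 2226 normalised counts in TSA and 5750, 6338 and 5594 in HMS-I1, and Tssk1, a kinase of spermatids, had 9078, 763 and 1901 in TSA and 8486, 5101 and 5055 in HMS-I1. Acr, the acrosomal protease acrosin, had 2881, 3204 and 3389 in TSA and 2778, 4666 and 3894 in HMS-I1, a difference of -0.23 (standard error 0.14). Thus TSA replicates 2 and 3 were below every HMS-I1 library for Acrv1 and Tssk1, and within the HMS-I1 range for Acr.

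Elongating spermatid genes showed smaller differences. Of 23 genes, 22 were on average lower in TSA, with a median of -0.34, and by replicate number the medians were -0.05, -0.82 and -0.20. Lower by over 1 were 9 of 23 in replicate 2 (12.4% of all genes) and 4 of 23 in replicate 3 (7.36% of all genes). Tnp1, the first transition protein, had 249488, 19232 and 49245 normalised counts in TSA and 341615, 81945 and 84690 in HMS-I1 (difference -1.11, standard error 0.38). Over the series Tnp1 was also lower in all libraries poor in histone transcripts than in all those rich in them. Tnp2, the other transition protein, had 68096, 16079 and 26813 in TSA and 71759, 83911 and 54420 in HMS-I1, a difference of -1.16 that passed without TSA replicate 1 (difference -1.73, adjusted p = 0.0188). Tsga8, an X-linked spermatid gene, had 7806, 680 and 3274 in TSA and 7633, 3053 and 7756 in HMS-I1. For both genes the replicate 1 libraries were close and TSA replicate 2 was the lowest of the 6. Prm1, a protamine, had 153835, 26506 and 34925 in TSA and 147990, 65119 and 63563 in HMS-I1, a difference of -0.70. Prm2 had 240037, 74940 and 90829 in TSA and 256801, 104126 and 86801 in HMS-I1, and Odf1, an outer dense fibre protein of the tail, had 25231, 21600 and 30805 in TSA and 25568, 28068 and 25513 in HMS-I1. For Prm2 and Odf1, whose differences were -0.17 and -0.04, the groups overlapped and the sign changed when single libraries were left out, and for Odf1 also under quantile normalisation.

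Acrosome and sperm-egg fusion genes were on average lower in TSA in 22 of 25 cases (median -0.58), with medians of -0.02, -0.94 and -0.41 in replicates 1, 2 and 3. Lower in all 3 replicate numbers were 12 of 25, beside 18.6% of all genes, and 2 of 25 had every TSA library below every HMS-I1 library, beside 1.38% of all genes. Spaca6, needed for sperm to fuse with the egg, had 1189, 85.3 and 132 normalised counts in TSA and 1520, 320 and 316 in HMS-I1 (difference -1.17, standard error 0.32). Tmem95, another fusion gene, had 203, 105 and 128 in TSA and 225, 288 and 255 in HMS-I1, so that its groups did not overlap (difference -0.87, standard error 0.29). Adam3, a sperm surface protein, had 42161, 12131 and 11807 in TSA and 54727, 23348 and 15721 in HMS-I1, a difference of -0.58. Spaca6 and Adam3 were lower in TSA in 3 of 3 replicate numbers, though their groups overlapped. Fam209 had 6317, 302 and 650 in TSA and 6354, 2279 and 2208 in HMS-I1, a difference of -1.56. Without TSA replicate 1, 6 of the 25 genes passed, all lower (Dcst1, Eqtn, Fam209, Izumo1, Spam1 and Zp3r), beside 3% of all genes. With the library term and both replicate 1 libraries left out, 8 of 25 passed, beside 3.26% of all genes. Without that term, leaving out both gave 0 of 25.

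Sex-linked spermatid genes, expressed after the silencing of the X and Y chromosomes in meiosis, were lower in TSA in 16 of 19 cases (median -0.61), with medians of -0.05, -1.02 and -0.68 by replicate number. Zfy2, a Y-linked zinc finger gene, had 651, 217 and 109 normalised counts in TSA and 781, 612 and 205 in HMS-I1 (difference -0.89, standard error 0.26), and its partner Zfy1 had 305, 204 and 81.6 in TSA and 316, 415 and 172 in HMS-I1. Slxl1, an X-linked gene, had 1820, 594 and 381 in TSA and 2061, 1623 and 761 in HMS-I1, a difference of -0.87. Several of these genes have near-identical copies between which reads can be split, so their single values are uncertain.

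Genes that act in the exchange of histones for protamines did not move as a block: 13 of 17 were lower in TSA and 4 higher, with a median of -0.17. Cdyl, a chromodomain protein of spermatids, had 8870, 1147 and 3103 normalised counts in TSA and 9327, 14135 and 9056 in HMS-I1, so that every TSA library was below every HMS-I1 library (difference -1.75). Chd5, a chromatin remodeller of spermatids, had 5145, 1694 and 3740 in TSA and 5800, 17455 and 8546 in HMS-I1. The groups did not overlap for Chd5 either, a gene chosen after its values were seen. In 2 of the 17 genes TSA lay wholly below HMS-I1, beside 1.38% of all genes tested. Rnf8, a ubiquitin ligase that marks histones, had 593, 607 and 735 in TSA and 562, 473 and 521 in HMS-I1, a difference of 0.31. Its groups did not overlap in the other direction, as for 1.22% of all genes with TSA wholly above HMS-I1. Sperm tail and axoneme genes were lower in TSA in 18 of 27 cases (median -0.17, and -0.34 in replicate 2). Ropn1, of the fibrous sheath, had 15304, 790 and 4128 in TSA and 16038, 5801 and 9925 in HMS-I1.

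**Figure D3:**
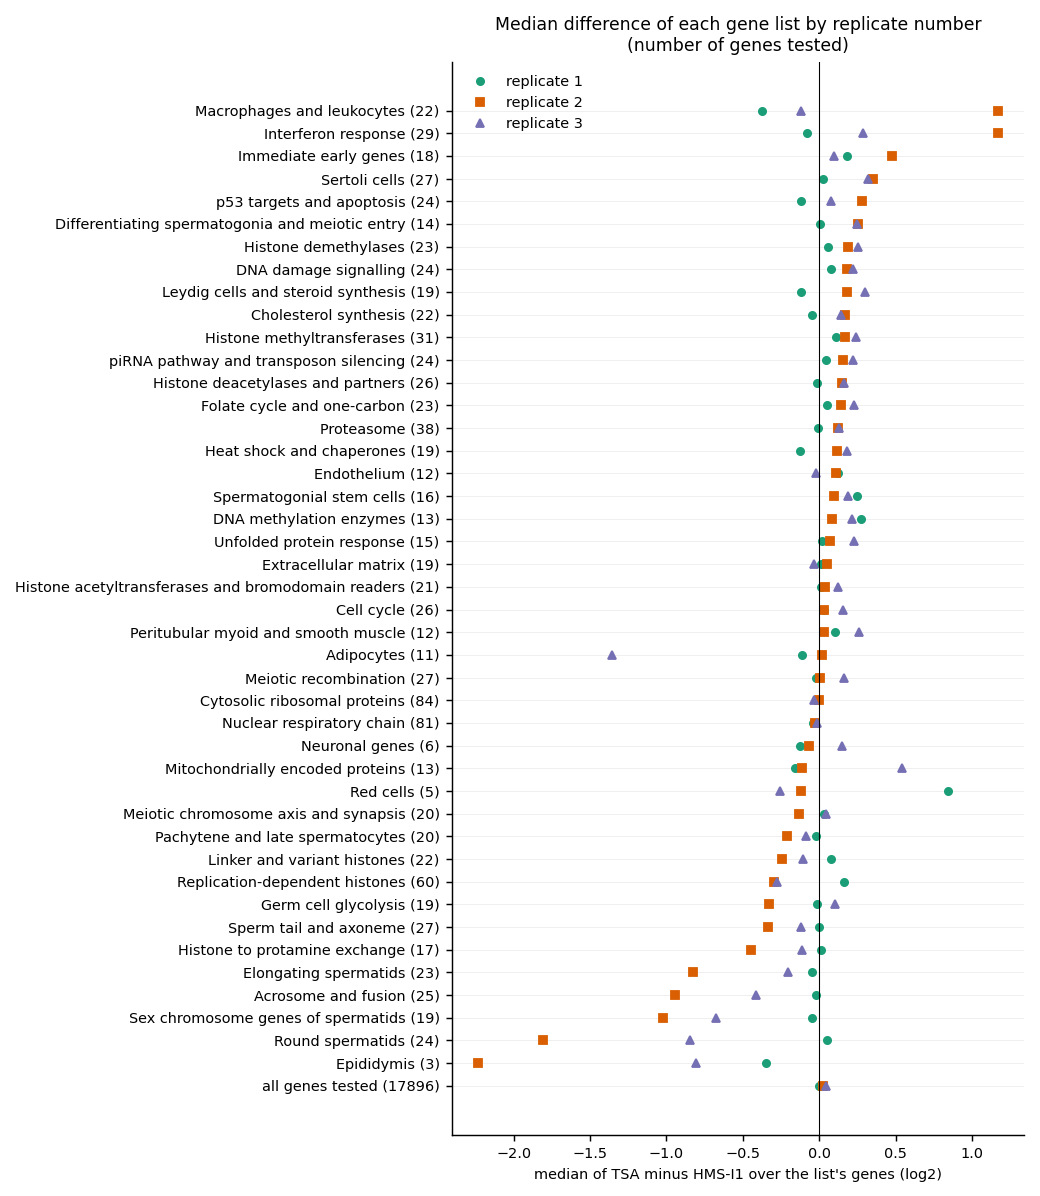
Median over each list's genes of TSA minus HMS-I1 (x axis, log2 scale) for each of 43 gene lists and for all genes tested (rows, with the number of genes tested), in replicate 1 (circles), replicate 2 (squares) and replicate 3 (triangles). Round spermatid genes stand at 0.05, -1.81 and -0.84, and interferon response genes at -0.08, 1.17 and 0.29.

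Earlier germ cells showed no shift of that size. Of 20 genes of pachytene and late spermatocytes, 15 were lower in TSA, with a median of -0.11 that became 0.01 under quantile normalisation. Lower in all 3 replicate numbers were 9 of 20, beside 18.6% of all genes. The list's mean log2 level was 12.39 and 12.47 in TSA replicates 2 and 3, the lowest of the 15 libraries. The exception in size was Calr3, a testis chaperone of the calreticulin family, with 5934, 301 and 1633 normalised counts in TSA and 6332, 7978 and 5902 in HMS-I1 (difference -2.22, standard error 0.92). Nme5 and Spag6 of the same list, both tied to the sperm flagellum, differed by -0.48 and -0.65. Both were lower in TSA replicates 2 and 3 than in HMS-I1 replicates 2 and 3. Piwil1, which binds piRNAs, had 7832, 15342 and 16201 in TSA and 7662, 11308 and 12205 in HMS-I1, a difference of 0.29. Ldhc, the germ cell lactate dehydrogenase, had 120749, 80489 and 110627 in TSA and 128736, 125610 and 140477 in HMS-I1. Every TSA library was below every HMS-I1 library for Ldhc, as for 1.38% of all genes tested.

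Genes of the meiotic chromosome axis had a median of -0.04 (8 of 20 higher in TSA), which became 0.04 under quantile normalisation, and recombination genes one of 0.03 (15 of 27 higher), both close to the 0.01 over all genes. Brca2, which acts in repair by recombination, had 2220, 1334 and 1055 normalised counts in TSA and 2680, 2192 and 1562 in HMS-I1 (difference -0.52, standard error 0.12), lower in TSA in 3 of 3 replicate numbers. Rec8, a meiotic cohesin subunit listed with meiotic entry, had 1321, 682 and 1525 in TSA and 1403, 1400 and 2062 in HMS-I1.

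Spermatogonial stem cell genes were higher in TSA in 11 of 16 cases (median 0.11) and genes of differentiating spermatogonia in 10 of 14 (median 0.13). In all 3 replicate numbers 4 of 16 and 5 of 14 were higher, beside 22.2% of all genes. Lower in all 3 were 2 of 16 and 1 of 14, beside 18.6% of all genes. Zbtb16, a factor of undifferentiated spermatogonia, had 158, 255 and 286 normalised counts in TSA and 60.3, 212 and 202 in HMS-I1. Lin28a, an RNA-binding protein of the same cells, had 152, 252 and 287 in TSA and 97.2, 219 and 210 in HMS-I1. Both were higher in TSA in 3 of 3 replicate numbers. The spermatogonial markers Gfra1 and Etv5 were not. Gfra1 had 160, 83.2 and 115 in TSA and 109, 129 and 132 in HMS-I1. Etv5 had 496, 1018 and 1505 in TSA and 510, 1136 and 1435 in HMS-I1. Genes of the piRNA pathway were higher in 16 of 24 cases (median 0.17). Tdrd1 had 6159, 8272 and 9165 in TSA and 5363, 6327 and 6846 in HMS-I1, whereas Gtsf1, a piRNA factor also abundant in later germ cells, had 13996, 2582 and 5135 in TSA and 15061, 5332 and 8423 in HMS-I1.

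**Figure D4:**
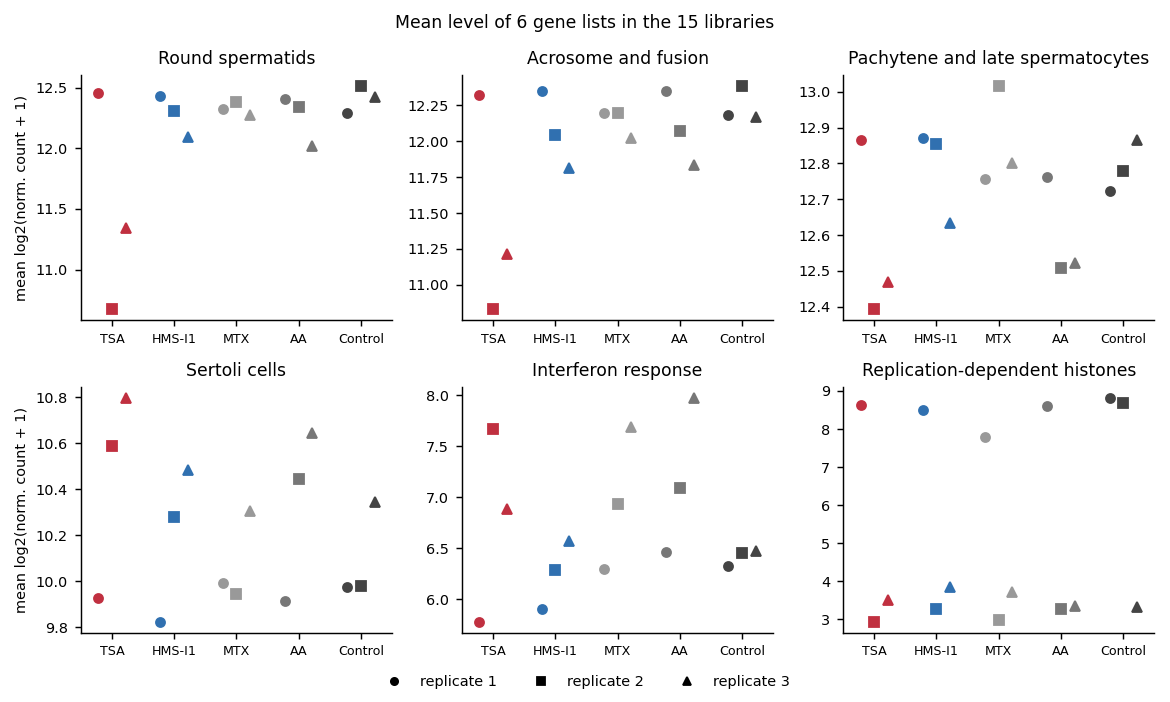
Mean log2(normalised count + 1) over the tested genes of 6 lists (y axes) in the 15 libraries by treatment, with 1 symbol per library (circle, square and triangle for replicates 1, 2 and 3). For round spermatid genes TSA replicates 2 and 3 stand at 10.67 and 11.34 and the other 13 libraries between 12.02 and 12.52, and the histone panel shows the replicate 1 libraries and Control replicate 2 far above the rest.

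Sertoli cell genes were on average higher in TSA in 25 of 27 cases, with a median of 0.23. By replicate number the medians were 0.02, 0.35 and 0.31, and 15 of 27 were higher in all 3 (22.2% of all genes tested). The median was 0.61 without TSA replicate 1 and -0.03 without HMS-I1 replicate 1. The mean level of the list was 9.93, 10.59 and 10.80 in TSA replicates 1 to 3 and 9.82, 10.28 and 10.48 in HMS-I1 replicates 1 to 3. Aqp8, a water channel of Sertoli cells, had 1092, 661 and 1558 normalised counts in TSA and 866, 445 and 1126 in HMS-I1 (difference 0.46, standard error 0.09). Gata4 had 527, 837 and 1258 in TSA and 446, 696 and 960 in HMS-I1, and Sox9 had 230, 1062 and 1109 in TSA and 199.6, 863 and 731 in HMS-I1. Both encode transcription factors of Sertoli cells. In all 3 genes the groups overlapped, and TSA was the higher within each replicate number, but for Gata4 and Sox9 the sign turned when single libraries were left out.

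Leydig cell and steroid synthesis genes were higher in TSA in 12 of 19 cases (median 0.13), endothelial genes in 7 of 12 (median 0.07) and peritubular myoid genes in 11 of 12 (median 0.12). In all 3 replicate numbers 2 of 19, 2 of 12 and 2 of 12 were higher, beside 22.2% of all genes, and 16 of 19 Leydig cell genes were lower in replicate 1. Without HMS-I1 replicate 1 the 3 medians were -0.11, -0.20 and -0.34. Ptgds, a prostaglandin synthase, had 4737, 2616 and 7120 normalised counts in TSA and 5413, 1614 and 3462 in HMS-I1. Vwf, the von Willebrand factor of vessels, had 326, 309 and 474 in TSA and 623, 406 and 569 in HMS-I1, a difference of -0.53 (standard error 0.17). The 4 markers of the epididymis (Crisp1, Lcn5, Lcn8 and Defb20) were below 10 in all 6 libraries, with Lcn5 and Lcn8 at 0, and summed to at most 3.39 in TSA and 14.5 in HMS-I1. Of the wider epididymis list 3 genes of 10 were tested (Defb30, Cst8 and Rnase10), of which Defb30 and Cst8 are known from spermatids too. Defb30 had 276, 9.67 and 24.5 in TSA and 358, 130 and 126 in HMS-I1, and Cst8 had 12761, 1521 and 4658 in TSA and 14775, 7142 and 8166 in HMS-I1.

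Fat cell genes varied from library to library. Adipoq, the fat cell hormone adiponectin, had 596, 18.7 and 48.1 normalised counts in TSA and 646, 150 and 199 in HMS-I1, and Cfd, the serine protease adipsin, had 0, 7.05 and 0 in TSA and 7.97, 24.9 and 118 in HMS-I1. The list's medians were -0.12, 0.02 and -1.36 by replicate number, over 11 genes. The 4 fat cell markers summed to between 172 and 673 in TSA and between 384 and 739.96 in HMS-I1. The part of attached fat in these values was not tested.

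Interferon response genes were on average higher in TSA in 26 of 29 cases, with a median of 0.52, and the difference was concentrated in replicate 2. The medians by replicate number were -0.08, 1.17 and 0.29, and 19 of 29 genes were higher by over 1 in replicate 2, beside 3.36% of all genes tested. In replicate 3, 2 of 29 were (1.25% of all genes), and in replicate 1 it was 1 of 29 (3.45%). Cxcl9, a chemokine induced by interferon gamma, had 11.4, 2215 and 189 normalised counts in TSA and 25.4, 48.2 and 42.5 in HMS-I1 (difference 2.18, standard error 1.30). Cxcl10, a related chemokine, had 5.29, 209 and 54.4 in TSA and 2.89, 4.48 and 13.6 in HMS-I1. Both chemokines stood highest, of all 15 libraries, in TSA replicate 2. Iigp1, a GTPase induced by interferon, had 124, 2967 and 350 in TSA and 161, 245 and 133 in HMS-I1, and Gbp2, another such GTPase, had 52.9, 1258 and 373 in TSA and 71.3, 137 and 131 in HMS-I1.

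Another 4 genes of the list were higher in TSA within each replicate number. They were picked by small p with the block, which favours a shared sign. Of the 29 genes, 10 were higher in all 3, beside 22.2% of all genes tested. Zbp1, a sensor of Z-form nucleic acid, had 19.5, 172 and 71.7 normalised counts in TSA and 4.98, 24.0 and 32.9 in HMS-I1 (difference 1.89, standard error 0.41). Stat2, a transducer of interferon signals, had 269, 428 and 322 in TSA and 186, 203 and 247 in HMS-I1, so that its groups did not overlap (difference 0.66, standard error 0.18, beside 1.22% of all genes with TSA wholly above HMS-I1). Gbp3 had 117, 536 and 109 in TSA and 73.2, 148 and 68.9 in HMS-I1, and Ifi27 had 604, 435 and 672 in TSA and 481, 339 and 537 in HMS-I1. The mean log2 level of the list was 5.78, 7.66 and 6.89 in TSA replicates 1 to 3 and 5.91, 6.29 and 6.57 in HMS-I1 replicates 1 to 3. It was 6.30, 6.93 and 7.69 in MTX, 6.47, 7.09 and 7.97 in AA and 6.32, 6.45 and 6.47 in the Control libraries. The TSA values thus lay within the range of the MTX, AA and Control libraries except for replicate 1, which was the lowest of the 15.

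Macrophage and leukocyte genes were higher beside the interferon genes in replicate 2, with medians of -0.38, 1.17 and -0.12 by replicate number and 16 of 22 higher on average. Ptprc, the leukocyte antigen CD45, had 137, 538 and 126 normalised counts in TSA and 114, 114 and 97.6 in HMS-I1, and H2-Eb1, an antigen presentation gene, had 191, 1016 and 877 in TSA and 217, 158 and 737 in HMS-I1. Itgam had 380, 202 and 104 in TSA and 51.0, 92.7 and 142 in HMS-I1. Aif1, listed as a macrophage gene, went the other way, with 12881, 1304 and 2790 in TSA and 14046, 5027 and 4730 in HMS-I1. The 4 macrophage markers, none at 0, summed to between 1459 and 2297 in TSA and between 1211 and 2242 in HMS-I1. The part of leukocytes in the interferon values was not tested.

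**Figure D5:**
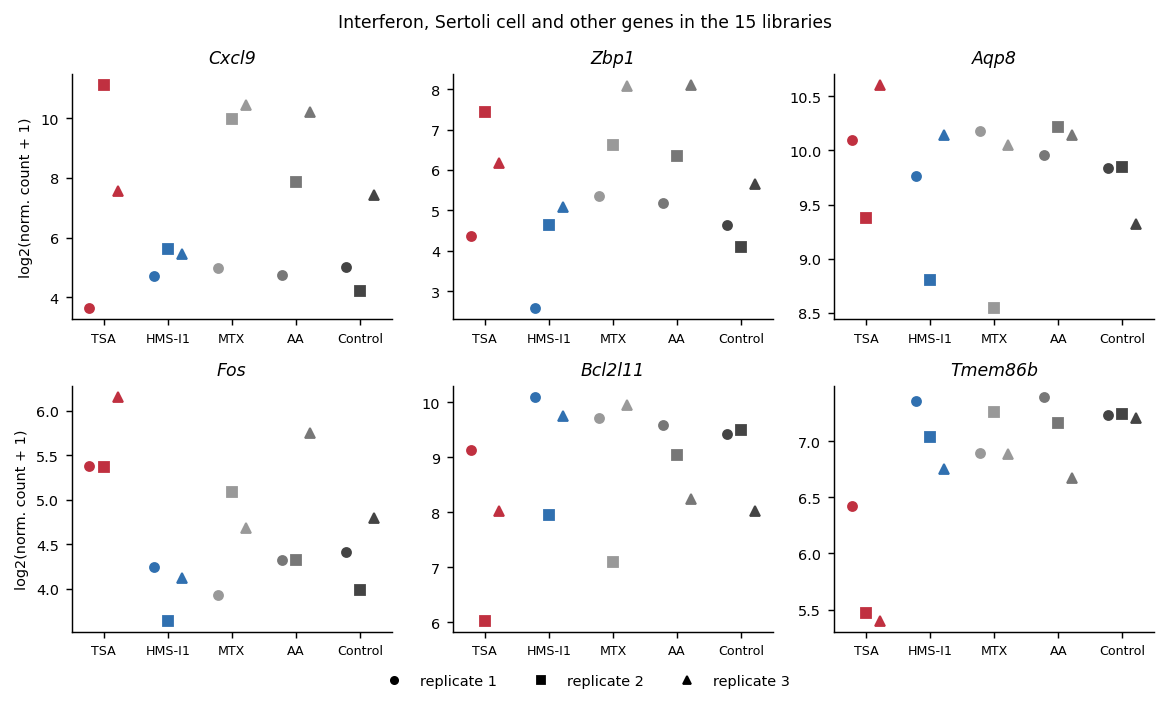
log2(normalised count + 1) of 6 genes in the 15 libraries by treatment, with 1 symbol per library (circle, square and triangle for replicates 1, 2 and 3). Cxcl9 is highest in TSA replicate 2, Fos is higher in the 3 TSA libraries (40.3 to 70.3 normalised counts) than in the 3 HMS-I1 libraries (11.5 to 17.9), and Tmem86b is lower in the 3 TSA libraries (41.3 to 85.0) than in every other library.

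Genes encoding chromatin enzymes showed small differences. Histone methyltransferase genes were higher in TSA in 26 of 31 cases (median 0.18) and histone demethylase genes in 20 of 23 (median 0.14). Histone deacetylase and partner genes were higher in 16 of 26 (median 0.07) and acetyltransferase and bromodomain genes in 13 of 21 (median 0.03). In all 3 replicate numbers 14 of 31, 12 of 23, 9 of 26 and 5 of 21 were higher, beside 22.2% of all genes. Suv39h1, which methylates histone H3 lysine 9, had 399, 447 and 618 normalised counts in TSA and 276, 397 and 506 in HMS-I1 (difference 0.33, standard error 0.12). Setdb1, another such enzyme, differed by 0.27, and Kdm5a, a demethylase of H3 lysine 4, by 0.32. These 3 genes were higher in TSA in each replicate number, with groups that overlapped. Hdac6, a mainly cytoplasmic deacetylase, had 1792, 2128 and 3150 in TSA and 1511, 1754 and 2423 in HMS-I1 (difference 0.30, standard error 0.08), while Hdac11 had 2119, 272 and 404 in TSA and 2221, 566 and 601 in HMS-I1. Kat6a, an acetyltransferase, differed by 0.40 and Brd3, a reader of acetylated histones, by -0.43 (1982, 4982 and 3173 in TSA, 2376, 7453 and 4366 in HMS-I1).

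Replication-dependent histone genes had a median of -0.21 over 60 genes, which became 0.17 under quantile normalisation, -1.98 without TSA replicate 1 and 1.83 without HMS-I1 replicate 1. Within replicate numbers it was 0.16, -0.29 and -0.28. Hist1h4a had 1892, 72.4 and 194 normalised counts in TSA and 1621, 845 and 724 in HMS-I1, and Hist1h2bc had 468, 737 and 620 in TSA and 332, 558 and 575 in HMS-I1. These genes resemble each other, so reads may be split between them. H2afy, the macroH2A gene, had 2179, 2163 and 2409 in TSA and 1841, 1808 and 2182 in HMS-I1.

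DNA damage signalling genes were higher in TSA in 21 of 24 cases (median 0.15) and p53 target and apoptosis genes in 20 of 24 (median 0.09). In all 3 replicate numbers 10 of 24 and 4 of 24 were higher, beside 22.2% of all genes. Of the p53 target and apoptosis genes, 16 of 24 were lower in replicate 1, and their median was -0.12 without TSA replicate 2. Topbp1, an activator of the ATR kinase, had 3282, 4597 and 2953 normalised counts in TSA and 2749, 3749 and 2262 in HMS-I1. Bcl2l11, the cell death protein BIM, was among the 4 lower p53 target and apoptosis genes, with 557, 64.3 and 259 in TSA and 1095, 246 and 863 in HMS-I1 (difference -1.54, standard error 0.22), lower in 3 of 3 replicate numbers. Fos, an immediate early gene, had 40.6, 40.3 and 70.3 in TSA and 17.9, 11.5 and 16.4 in HMS-I1 (difference 1.63, standard error 0.31). Fosb, its relative, lay the other way, with 15.7, 5.05 and 11.7 in TSA and 24.2, 20.4 and 30.4 in HMS-I1. The groups overlapped for neither gene. Among all genes tested, TSA lay wholly above HMS-I1 in 1.22% and wholly below in 1.38%. Of 18 immediate early genes, 13 were on average higher in TSA and 5 lower (median 0.09). Egr1 had 29.0, 260 and 268 in TSA and 22.3, 171 and 139 in HMS-I1. Hsph1, a heat shock protein, had 2006, 1008 and 904 in TSA and 2668, 1719 and 1293 in HMS-I1 (difference -0.57, standard error 0.11), and Hsf2, a heat shock factor of germ cells, differed by -0.49. Hsph1 and Hsf2 were lower in TSA in 3 of 3 replicate numbers, as were 6 of 19 heat shock and chaperone genes, beside 18.6% of all genes. The list as a whole was not lower, with 10 of 19 higher in TSA on average, 9 lower and a median of 0.04. Creb3l4, listed with the unfolded protein response and known as a factor of spermatids, had 9795, 934 and 2016 in TSA and 9684, 7384 and 5425 in HMS-I1. On average it went against its list, in which 9 of 15 genes were higher in TSA and 6 lower (median 0.06). Slc16a7, a lactate and pyruvate carrier, differed by -1.11.

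Outside the lists, the genes with the smallest p over the 5 groups and the same sign in all 3 replicate numbers did not pass either. Tmem86b, a lysoplasmalogenase, had 85.0, 43.4 and 41.3 normalised counts in TSA and 163, 131 and 107 in HMS-I1, and no less than 100.7 in the 9 other libraries (difference -1.28, standard error 0.22). It passed without TSA replicate 1 (difference -1.61, adjusted p = 0.0163). Adora3, an adenosine receptor, had 126, 27.6 and 43.9 in TSA and 210.5, 227 and 127 in HMS-I1, a difference of -1.75. For both genes the 3 TSA libraries were the lowest of all 15. Among genes higher in TSA, Slc10a7 had 680, 655 and 428 in TSA and 322, 391 and 354 in HMS-I1, and Ano1, a calcium-activated chloride channel, had 757, 658 and 873 in TSA and 515, 420 and 607 in HMS-I1 (difference 0.58, standard error 0.09). Ptk2, the focal adhesion kinase, had 2648, 2367 and 2177 in TSA and 2006, 1565 and 1678 in HMS-I1. Ppp1r3b and Socs6 differed by 1.06 and 0.62. In each of these 7 genes every TSA library lay on one side of every HMS-I1 library. They were picked by small p and a shared sign, which favours groups that do not overlap. Among all genes tested, TSA lay wholly above HMS-I1 in 1.22% and wholly below in 1.38%.

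The fit with the block picked out small differences of steady size. Prnp, the prion protein gene, had 831, 1182 and 1516 normalised counts in TSA and 541, 803 and 995 in HMS-I1 (difference 0.59, standard error 0.08). Grb2, a signalling adaptor, had 406, 1235 and 1313 in TSA and 215, 790 and 832 in HMS-I1 (difference 0.74, standard error 0.11), and Efnb1 and Samhd1 differed by 0.69 and 0.71. Cep128, a centriole protein, had 11280, 4769 and 2677 in TSA and 17676, 7306 and 3795 in HMS-I1 (difference -0.59, standard error 0.08). For these genes the difference between replicate numbers within a treatment exceeded that between the treatments.

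In replicate 1 the largest differences fell on other genes. Rbmy, a Y-linked family, had 290 normalised counts in TSA replicate 1 and 0 in HMS-I1 replicate 1, and Ppp1ccb had 0 in TSA replicate 1 and 2166 in HMS-I1 replicate 1. Both have near-identical copies, between which reads can be assigned differently from library to library, so these values are uncertain. Greb1l had 89.7 in TSA replicate 1 and 1362 in HMS-I1 replicate 1, and Sema4d had 111 in TSA replicate 1 and 13.8 in HMS-I1 replicate 1, against 154 and 194 in TSA replicate 3 and 129 and 145 in HMS-I1 replicate 3. For Sema4d the difference stayed above 0 over left-out libraries, those of replicate 1 included (0.40 to 2.05), so it was not confined to replicate 1. Genes on the Y chromosome made up 7.09% of the 677 lower genes and 6.48% of the 617 higher genes of replicate 1, beside 1.94% of all genes tested.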

How the data were processed

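RNA of whole testes had been purified and sequenced on an Illumina instrument, per the labels' protocols. Salmon 0.12.0, FastQC 0.11.9, DESeq2 1.34.0 and the build GRCm39 are named in the submitters' processing notes, without roles. The deposited table holds 1 normalised count signal per Ensembl gene and library (36118 genes, 15 libraries), scaled by the authors. The values are not whole reads, so depth is only approximate, no count model was used and p-values rest on the spread between libraries. Symbols came from GENCODE M21 (35825 of 36118 identifiers matched) and promoters from RefSeq (GRCm38.p6). Values were analysed as log2(normalised count + 1) over genes with a mean of at least 10, with limma 3.58.1 in R 4.3.3 (empirical Bayes with a variance trend, two-sided, Benjamini-Hochberg adjustment), tested on simulated data. The main design held 5 group means over 15 libraries, and the other held the 6 libraries with the replicate number as a block (2 residual degrees of freedom). Deviations from the group means correlated at 0.75, 0.67 and 0.70 between libraries of equal number and at -0.58 to 0.07 between others. Deviations cancel out within a group, which by itself lowers the correlations between unequal numbers. Libraries of equal number thus resembled each other in these 2 groups, but the labels state no pairing. The library term divides libraries rich in histone transcripts from the rest. Named genes are, per design and direction, the first 10 by p among those averaging 50 or more with 1 sign over all 3 replicate numbers; per list, up to 4 with the smallest p in the block design; per replicate number and direction, the 10 largest differences at a mean of at least 50; and cell type markers. Chd5, Gm20831 and the genes listed as passing without TSA replicate 1 (Catsper3, Izumo1, Tex33, Dcst1, Eqtn, Spam1 and Zp3r) were chosen after their values were seen. Members and lists were chosen with earlier results of these data known. Spans of Adora3, Cxcl10, Tssk1, Tsga8, Zpbp, Prnp, Kdm5a, Setdb1 and Rnf8 overlap those of other protein-coding genes, and whether counting used strand was not stated. Alternatives covered the pseudocount, the filter, the scaling, the variance trend, the design and left-out libraries.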

Additional observations from a re-analysis of the deposited data

How the results depend on the processing

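The count of genes past the threshold was 0 with all 6 libraries in both designs, the replicate block included, under the other pseudocounts, filters, scalings, trend setting and sets of libraries tried. Leaving out single libraries or replicate numbers gave 0 to 537 in the design over 5 groups, the 537 without TSA replicate 1 and 1 without both replicate 1 libraries. With the library difference as a term, an alternative chosen after seeing the data, the count was 1011 without TSA replicate 1 and 583 without both replicate 1 libraries. The cause was not tested.

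Over left-out libraries the difference ranged from -0.68 to 0.31 for Prm2, from -0.20 to 0.13 for Odf1 (0.077 under quantile normalisation), from -0.0086 to 0.62 for Gata4, from -0.29 to 1.11 for Sox9, from -1.46 to 0.077 for Hdac11, from -0.0062 to 0.64 for Kdm5a, from -0.28 to 1.68 for Egr1, from -1.93 to 0.17 for Greb1l and from -5.90 to 0.32 for Ppp1ccb. Of 645 list medians recomputed, 79 took another sign. The median was -1.41 to -0.27 for round spermatid genes, -1.02 to -0.24 for acrosome genes and 0.09 to 0.97 for interferon genes. It took both signs over left-out libraries for 28 of the 43 lists, among them stem cell (-0.15 to 0.61), Sertoli cell (-0.03 to 0.61), Leydig cell (-0.16 to 0.48), peritubular (-0.34 to 0.62), endothelial (-0.22 to 0.34), macrophage (-0.21 to 0.77), p53 target (-0.12 to 0.32) and deacetylase genes (-0.08 to 0.26). Quantile normalisation moved the median of all genes to 0.08. Depth limits genes with few counts, most in the replicate 1 libraries.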
